A study of Rattus norvegicus with 9 samples.

Results

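The genes described here drive S phase and mitosis, and they were measured in pancreatic islets of Wistar rats. Of 58 listed genes, chosen from a list of known functions but with earlier results of these data known, 54 were measured. These were 17 of 19 S phase genes and 37 of 39 mitosis genes, among 14217 genes on the array. Cdc6, Rrm2, Ndc80 and Tpx2 had no probe set assigned to them alone and were not analysed here. Islets came from 4 lean rats on standard chow and from 5 rats made obese by a high-caloric cafeteria diet, a choice of energy-dense palatable foods, over 30 days. Both groups share the strain, the collagenase digestion that frees the islets and the Trizol extraction of RNA, and the labels give no age or sex. Each sample is titled as a single rat and was put on 1 Affymetrix Rat Genome 230 2.0 array; whether any sample pools islets from more than 1 rat is not stated.

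A dividing cell copies its DNA in S phase and separates the copies in mitosis. S phase genes license replication origins, supply nucleotides and build the replication fork, and many are controlled by E2F transcription factors. Mitosis genes encode the cyclin B-Cdk1 kinase, the spindle, the kinetochores that join chromosomes to it, and the machinery of cell separation. Their promoters are known for a late cell cycle element, the CHR, and for CCAAT boxes bound by NF-Y. Beta cells of adult islets divide rarely, and a rise in their number is a known answer of rodents to obesity. An islet sample also holds endothelial, stromal and immune cells that can divide.

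Promoters of 45 of the 54 measured members were found by gene identifier in RefSeq (GRCr8), each running from 250 bases before the start of the gene to 50 after it. 3 kinds of letters were searched on both strands: TTTGAA for the CHR, CCAAT, and any of TTTCCCGC, TTTGGCGC, TTTCGCGC and TTTGCCGC for E2F. The CHR letters stood in 20 of 31 mitosis promoters (64.5%), in 1 of 14 S phase promoters (7.14%) and in 18.1% of all 27457 promoters. Letters for E2F stood in 9 of 14 S phase promoters (64.3%), in 2 of 31 mitosis promoters (6.45%), those of Cdk1 and Stmn1, and in 2.25% of all promoters. CCAAT was found in 24 mitosis promoters (77.4%), 7 S phase promoters and 37.7% of all promoters, and both CHR and CCAAT letters in 17 mitosis promoters (54.8%), 0 S phase promoters and 7.25% of all. These are matches of letters and not measured binding sites.

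**Figure D1:**
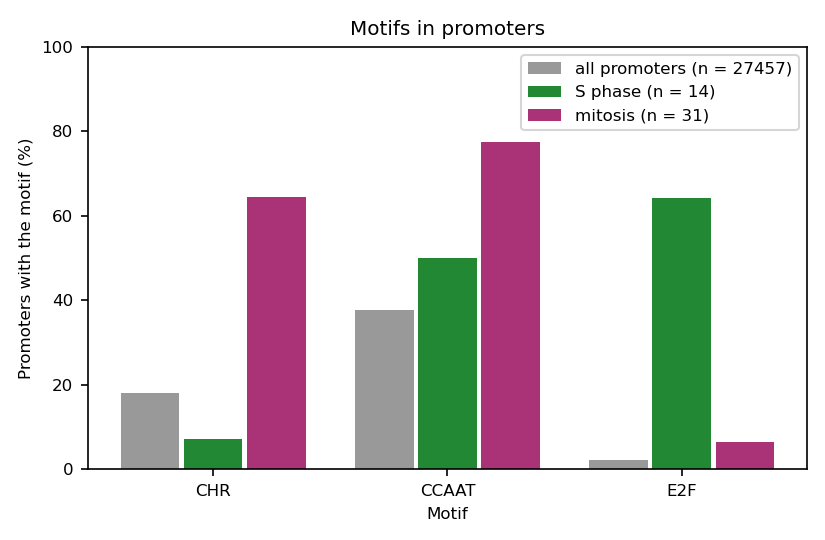
Share of promoters (vertical axis, percent) that hold the letters of each motif (horizontal axis), for all RefSeq promoters and for those of S phase and mitosis members. The CHR bar is tallest for mitosis members (64.5%) and the E2F bar for S phase members (64.3%).

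The 120 bases just before the start are shown for 4 mitosis genes that hold both late elements there, with the CHR and CCAAT letters, on either strand, in capitals. Cdk1 is the mitotic kinase, Top2a untangles chromosomes, Spc25 is a kinetochore subunit and Cdc20 activates the anaphase-promoting complex. They lie at chr20:19265173-19265292, plus strand (Cdk1), chr10:84473094-84473213, minus strand (Top2a), chr3:74396719-74396838, minus strand (Spc25) and chr5:137255800-137255919, minus strand (Cdc20), and are written 5′ to 3′ along the gene.
Cdk1: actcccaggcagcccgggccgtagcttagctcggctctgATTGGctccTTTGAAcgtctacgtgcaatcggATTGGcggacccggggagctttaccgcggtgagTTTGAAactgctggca
Top2a: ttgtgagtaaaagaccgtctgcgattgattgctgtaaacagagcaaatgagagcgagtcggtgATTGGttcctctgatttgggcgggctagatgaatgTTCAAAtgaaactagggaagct
Spc25: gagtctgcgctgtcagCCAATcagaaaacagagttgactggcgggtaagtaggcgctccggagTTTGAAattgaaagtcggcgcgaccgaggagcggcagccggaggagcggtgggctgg
Cdc20: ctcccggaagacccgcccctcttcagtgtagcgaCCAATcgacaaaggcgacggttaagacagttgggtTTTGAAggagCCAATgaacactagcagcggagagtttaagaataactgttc

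For contrast, 4 S phase promoters with E2F letters are shown, with those letters in capitals. Mcm2 and Mcm7 are subunits of the replicative helicase, Gins1 belongs to the complex that activates it, and Hells is a chromatin remodeller. They lie at chr4:122918095-122918214, minus strand (Mcm2), chr12:22163179-22163298, minus strand (Mcm7), chr3:160184800-160184919, plus strand (Gins1) and chr1:246114009-246114128, plus strand (Hells).
Mcm2: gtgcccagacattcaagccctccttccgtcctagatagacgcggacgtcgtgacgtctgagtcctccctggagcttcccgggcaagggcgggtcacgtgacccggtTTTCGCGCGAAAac
Mcm7: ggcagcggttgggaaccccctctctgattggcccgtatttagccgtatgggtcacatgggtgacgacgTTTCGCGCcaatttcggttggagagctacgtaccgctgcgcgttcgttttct
Gins1: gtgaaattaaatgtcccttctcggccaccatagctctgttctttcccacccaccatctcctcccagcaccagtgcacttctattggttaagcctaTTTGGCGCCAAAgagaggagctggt
Hells: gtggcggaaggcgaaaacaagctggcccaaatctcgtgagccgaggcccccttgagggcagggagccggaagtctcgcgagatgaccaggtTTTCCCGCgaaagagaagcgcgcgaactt
In Mcm2 and Gins1 a pair of E2F matches on opposite strands overlap, and in Mcm7 the last base of the match is also the first of a CCAAT match.

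The deposited values are log2 expression per probe set, with array medians between 5.28 and 5.32 and single values up to 14.24. For genes with more than 1 probe set, the one brightest on average was used. Of the 7 measured beta cell markers, Ins2 and Iapp marked the tissue by their high level. Ins2 averaged 14.19 in both groups and Iapp 13.92 in chow and 13.98 in cafeteria islets. By contrast 15 of the 54 members lay under the array median on all 9 arrays, where differences of RMA values are compressed, and 21 lay above it on all arrays. Differences are cafeteria minus chow on the log2 scale, with the moderated standard error (SE) of limma. The number of arrays limits the precision, and p-values reflect only how these 9 samples vary, which may be technical in part.

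Cell cycle genes had higher means in islets of cafeteria rats in 49 of 54 members, with a median difference of 0.20, but no member passed the test. Of the mitosis genes, which are 37 of the 54, 36 were higher with a median of 0.25, against 13 of 17 and 0.12 for S phase genes. Mitosis members varied together between arrays of the same diet (mean pairwise correlation 0.68), so their count is not one of independent results. The members were also chosen with earlier results of these data known. Over all genes 50.8% were higher and the median was 0.0025. By limma, 0 members and 0.0% of all genes reached an adjusted p of 0.05, and the lowest adjusted p of any member was 0.844. At an unadjusted p under 0.05 there were 5 members, Kif20a, Kif11, Dlgap5, Spc25 and Ccne1, all higher, where 3.42% of all genes were as high by that rule and 3.28% as low. In bulk tissue, more dividing cells and more RNA per dividing cell cannot be told apart.

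**Figure D2:**
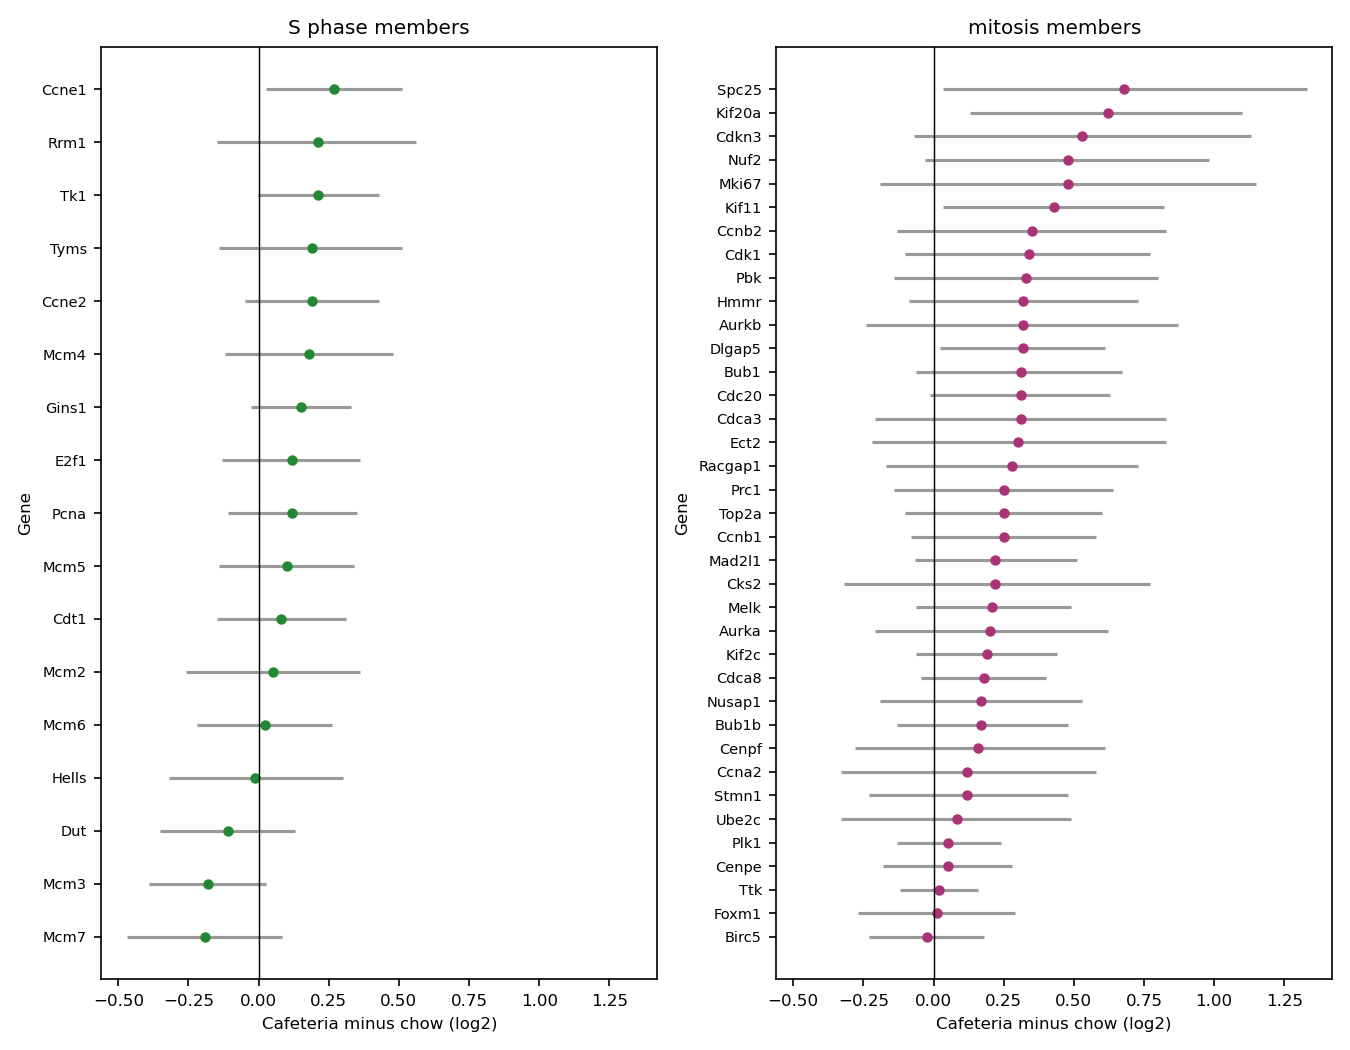
Difference of each member (horizontal axis, cafeteria minus chow, log2), S phase left and mitosis right; points are estimates and lines 95% intervals of limma, n = 4 and 5. Mitosis members run from -0.025 to 0.68 and S phase members from -0.19 to 0.27.

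Among the G1/S regulators, Ccne1, the cyclin that starts S phase with Cdk2, had log2 values of 5.52, 5.56, 5.58 and 5.44 in chow islets and of 5.61, 5.69, 5.94, 5.61 and 6.10 in cafeteria islets. It was the only member whose groups did not overlap, although the highest chow and the lowest cafeteria array differed by little; 1.33% of all genes were separate in this direction, and 0.837% in the other, where no member was. Its difference was 0.27 (SE 0.11, 1.2-fold, adjusted p = 0.844, limma). Ccne2, the other E-type cyclin, differed by 0.19 (SE 0.11), and the other probe set of Ccne2 by -0.10 (SE 0.14). E2f1, the transcription factor that switches on S phase genes, differed by 0.12 (SE 0.11), with chow values from 5.68 to 6.19 around all the cafeteria values of 5.88 to 6.15.

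The replicative helicase, which the 6 Mcm proteins form, showed no common direction. Mcm2 was at 6.64, 6.34, 6.43 and 6.69 in chow and at 6.32, 6.96, 6.73, 6.49 and 6.37 in cafeteria islets, a difference of 0.05 (SE 0.14). Mcm3 differed by -0.18 (SE 0.093) and Mcm7 by -0.19 (SE 0.12), whereas Mcm4, Mcm5 and Mcm6 differed by 0.18, 0.10 and 0.021. For Mcm7, chow replicate 1 (8.07) stood above the other 8 arrays (7.25 to 7.55), and without it the difference was -0.054. Mcm3 lay under the array median throughout.

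Genes of nucleotide supply were higher in 3 of 4 members. Tk1, the thymidine kinase of dividing cells, was at 6.24 to 6.34 in chow islets and at 6.25, 6.70, 6.41, 6.49 and 6.67 in cafeteria islets, so that 1 of 5 cafeteria arrays fell within the chow range (difference 0.21, SE 0.10; the other probe sets 0.26, SE 0.10, and 0.027, SE 0.086). Rrm1, the large subunit of ribonucleotide reductase, differed by 0.21 (SE 0.16) and Tyms, thymidylate synthase, by 0.19 (SE 0.15). Dut, which removes dUTP, differed by -0.11 (SE 0.11), and its other probe set by -0.36 (SE 0.15, unadjusted p = 0.0382). Without cafeteria replicate 3, where Dut had its lowest value (8.78), the difference was -0.015.

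Pcna, the sliding clamp of the replication fork, had log2 values of 9.16, 8.89, 8.94 and 8.77 in chow and of 8.85, 9.11, 9.29, 9.02 and 9.06 in cafeteria islets. The groups overlapped widely, with a difference of 0.12 (SE 0.10, 95% interval -0.11 to 0.35). Hells differed by -0.013 (SE 0.14), with a sign that changed between settings, and the origin factors Gins1 and Cdt1 by 0.15 (SE 0.081) and 0.081 (SE 0.11).

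**Figure D3:**
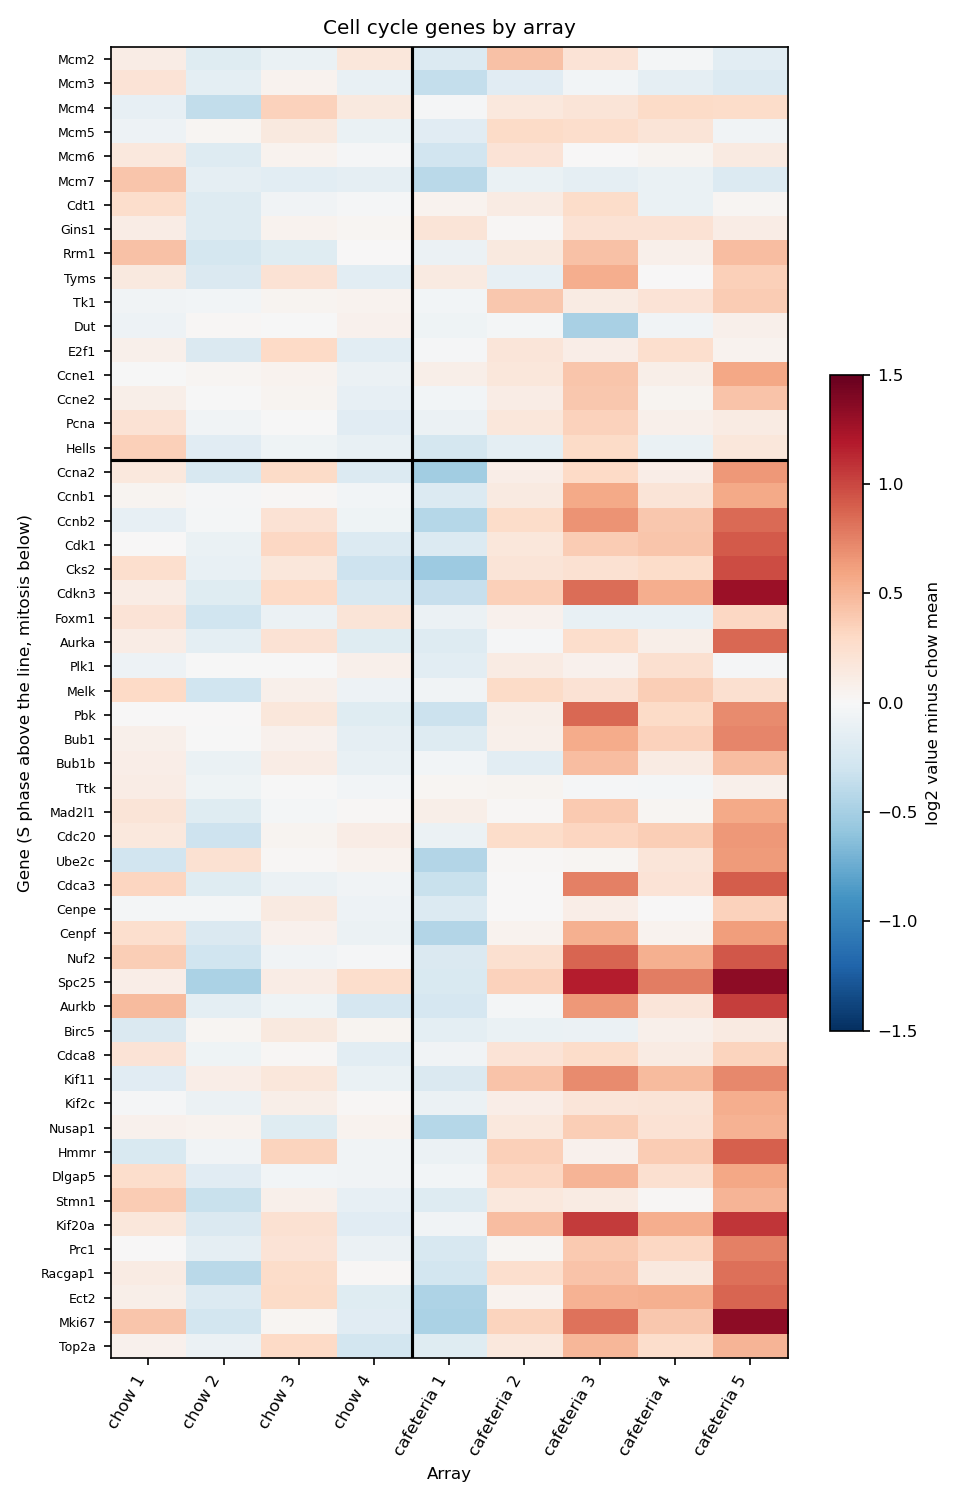
Each row is a member and each column an array; colour is the log2 value minus the mean of the 4 chow arrays, red above and blue below. Of the 37 mitosis genes, 33, 34, 35 and 36 are above the chow mean in cafeteria replicates 2, 3, 4 and 5, and 2 are in cafeteria replicate 1; the deepest reds lie in replicates 3 and 5.

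Mitosis genes showed wider differences between arrays. Mki67, which coats mitotic chromosomes and is the usual marker of dividing cells, was at 5.56, 4.86, 5.17 and 4.97 in chow islets and at 4.66, 5.47, 5.95, 5.55 and 6.48 in cafeteria islets. Its highest value lay in cafeteria replicate 5 and its lowest in cafeteria replicate 1, so the groups overlapped, with a difference of 0.48 (SE 0.30, 1.39-fold, adjusted p = 0.846, limma). Top2a differed by 0.25 (SE 0.16) at the probe set used, and by -0.0055 (SE 0.10) at its other.

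Genes of the spindle midzone and cytokinesis were higher in 4 of 4 members. Kif20a, a motor of the midzone, had the smallest p of all members: 5.42, 5.03, 5.48 and 5.08 in chow against 5.20, 5.71, 6.30, 5.80 and 6.33 in cafeteria islets. Of the cafeteria arrays, 4 lay above every chow array and replicate 1 lay within the chow range (difference 0.62, SE 0.22, 1.53-fold, unadjusted p = 0.0171 and adjusted p = 0.844, limma). Racgap1 and Ect2, which start the cleavage furrow, differed by 0.28 (SE 0.20) and 0.30 (SE 0.24), and the microtubule bundler Prc1 by 0.25 (SE 0.18). The other probe set of Racgap1 differed by 0.0079 (SE 0.11).

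Kinetochore genes were likewise higher in 4 of 4 members. Spc25 was at 5.41, 4.84, 5.42 and 5.57 in chow and at 5.08, 5.66, 6.49, 6.08 and 6.65 in cafeteria islets, again with cafeteria replicate 1 inside the chow range. This was the widest difference of the members, 0.68 (SE 0.29, 1.6-fold, unadjusted p = 0.0414, adjusted p = 0.844, limma). Its partner in the Ndc80 complex, Nuf2, differed by 0.48 (SE 0.23), and Cenpf and the motor Cenpe by 0.16 (SE 0.20) and 0.052 (SE 0.10).

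Spindle motors and microtubule proteins were higher in 6 of 6 members. Kif11, the motor that pushes spindle poles apart, differed by 0.43 (SE 0.18), with chow values of 3.82 to 4.16 and cafeteria values of 3.77, 4.41, 4.69, 4.46 and 4.71. It lay under the array median on all arrays, and its other probe set differed by 0.06 (SE 0.13). Dlgap5, which stabilises spindle fibres, differed by 0.32 (SE 0.13) and Hmmr by 0.32 (SE 0.19; the other probe set 0.27, SE 0.087). Kif2c, Nusap1 and Stmn1 differed by 0.19, 0.17 and 0.12.

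The cyclin and Cdk1 group was higher in 7 of 7 members. Cdk1 was at 5.82, 5.71, 6.12 and 5.61 in chow and at 5.61, 5.99, 6.20, 6.23 and 6.74 in cafeteria islets, with overlap (difference 0.34, SE 0.19). Ccnb1, the cyclin that activates Cdk1, was even across chow arrays, at 5.40 to 5.48, and spread from 5.23 to 6.01 across cafeteria arrays (0.25, SE 0.15). Cdkn3, a phosphatase acting on Cdk1 and Cdk2, differed by 0.53 (SE 0.27), Ccnb2 by 0.35, Cks2 by 0.22 and Ccna2, the cyclin of S and G2 phases, by 0.12. Foxm1, the transcription factor of late cell cycle genes, differed by 0.014 (SE 0.13), with a sign that changed when single samples were left out.

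The spindle checkpoint and anaphase genes were higher in 7 of 7 members, led by Cdc20, the checkpoint kinase Bub1 and Cdca3, all at 0.31 (SE 0.14, 0.17 and 0.23). All 4 other probe sets of Cdc20 had the same sign, from 0.022 to 0.15. The checkpoint proteins Bub1b, Mad2l1 and Ttk differed by 0.17, 0.22 and 0.02, and Ube2c, the ubiquitin carrier of the anaphase-promoting complex, by 0.082. Among the kinases, Pbk differed by 0.33, Melk by 0.21, Aurka by 0.20 and Plk1 by 0.053. In the chromosomal passenger complex, Aurkb differed by 0.32 (SE 0.25) and Cdca8 by 0.18 (SE 0.10), whereas Birc5 (survivin), the only lower mitosis gene, differed by -0.025 (SE 0.093), with a sign that changed between settings. Of 14 members with several probe sets, 10 had the same sign in all, and Ccne2, Foxm1, Mad2l1 and Top2a did not. Some of the matching signs rest on values near 0, such as 0.0079 for Racgap1.

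The mitosis genes varied together between arrays of the same diet, with both diets pooled. After the mean of its group was taken from each value, the mean correlation between pairs of mitosis members was 0.68 over 666 pairs, against 0.30 over 136 pairs of S phase members and 0.004 over all genes. These correlations rest on the same 9 arrays and describe them. Of the mitosis members, 32 of 37 had a mean correlation over 0.5 with the other mitosis genes. Mki67 and Cdkn3 had the highest, both 0.81, and Plk1 (0.17), Ttk (0.24), Birc5 (0.33), Foxm1 (0.38) and Melk (0.47) fell below. Of the S phase members 5 of 17 exceeded 0.5, namely Ccne2 (0.71), Ccne1 (0.67), Hells (0.62), Mcm6 (0.61) and Rrm1 (0.59), whereas Mcm2 had 0.08 and Dut -0.072. Mitosis members with both CHR and CCAAT letters had a median correlation of 0.75 (17 genes) and those without both 0.76 (14 genes), with median diet differences of 0.25 and 0.23. S phase members with E2F letters had a median correlation with the mitosis genes of 0.32 and a median diet difference of 0.05 (9 genes), and those without 0.49 and 0.21 (5 genes).

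The highest and lowest values fell on few arrays. Cafeteria replicate 5 held the highest of the 9 values in 35 of 54 members, where this array was highest in 10.9% of all genes, and in 31 of 37 mitosis members. Cafeteria replicate 1, of the same diet, held the lowest value in 25 members, where it was lowest in 9.75% of all genes. Chow replicate 2 was lowest in 18 members, 12 of them mitosis genes, against 12.6% of all genes. Scores, in which each member was centred on its mean over 9 arrays and the members were then averaged, put the mitosis genes of the chow arrays at -0.037, -0.28, -0.038 and -0.22 and those of the cafeteria arrays at -0.37, 0.0069, 0.29, 0.11 and 0.54. For S phase genes they were 0.088, -0.18, -0.0008 and -0.089 in chow and -0.14, 0.064, 0.14, 0.012 and 0.10 in cafeteria arrays. The cafeteria group thus reached both above and below the chow group for mitosis genes.

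The spread between cafeteria arrays exceeded that between chow arrays in 31 of 37 mitosis members (83.8%) and in 8 of 17 S phase members (47.1%), against 52.4% of all genes. The median SD of a mitosis member was 0.21 over chow and 0.38 over cafeteria arrays, that of an S phase member 0.16 and 0.19, and that of all genes 0.14 in each group. The widest pooled spreads were those of Mki67 (0.55), Spc25 (0.53), Cdkn3 (0.49) and Aurkb (0.45). This difference in spread was not tested.

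**Figure D4:**
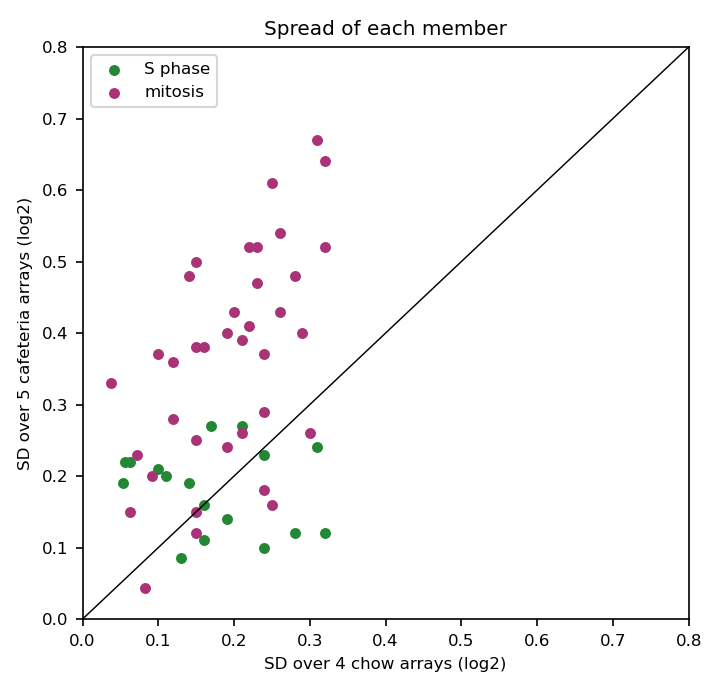
SD of each member over the 4 chow arrays (horizontal axis) and over the 5 cafeteria arrays (vertical axis), log2; the line marks equal spread. Of the mitosis members 31 of 37 lie above the line, and of the S phase members 8 of 17.

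Without cafeteria replicate 1, 26 of 54 members (23 mitosis and 3 S phase) were higher at an unadjusted p under 0.05, where 5.44% of all genes were, and the lowest adjusted p of a member was 0.374 by limma. There was 1 such member without cafeteria replicate 5 (2.62% of all genes) and 1 without chow replicate 2 (2.48%). There were 2 without chow replicate 4 (2.64%) or cafeteria replicate 3 (2.37%), and 3 without cafeteria replicate 2 (3.83%) or 4 (2.45%). The count of members higher under the cafeteria diet stayed between 44 and 51 when any single array was left out, the median mitosis difference between 0.14 and 0.37, and the median S phase difference between 0.055, without chow replicate 2, and 0.15.

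The level of many members rose with the 3′ minus 5′ difference of the actin and Gapdh controls for RNA quality. The array carries probe sets at the 3′ and the 5′ end of actin and Gapdh, and the 3′ minus 5′ difference is larger where RNA is shorter or its copying less complete. Their mean was 1.80, 1.50, 1.51 and 1.42 in chow arrays and 1.21, 1.53, 1.74, 1.32 and 1.73 in cafeteria arrays, where cafeteria replicate 1 was lowest and replicates 3 and 5 were the highest of their group. The diets differed in it by less than replicate arrays did (difference -0.052, two-sided exact permutation p = 0.746, n = 4 and 5). A positive coefficient means a higher level on arrays where it is larger, the sign of shorter or less completely copied RNA. With diet in the model, the coefficient of this measure was positive in 51 of 54 members, against 53.8% of all genes, and positive at an unadjusted p under 0.05 in 33 members, 28 mitosis and 5 S phase, against 10.8% of all genes (limma). Of the members, 4 mitosis genes and 0 S phase members passed an adjusted p of 0.05, where 0.183% of all genes did with this sign. They were Mki67 (2.28 log2 per unit of the control, SE 0.42, adjusted p = 0.0463), Aurkb (1.88, SE 0.34, 0.0449), Cdca3 (1.74, SE 0.33, 0.0497) and Cenpf (1.50, SE 0.27, 0.0445). Among S phase members Hells had 1.01 (SE 0.21, adjusted p = 0.056), Rrm1 1.12 (SE 0.25) and Pcna 0.66 (SE 0.20), whereas Gins1 had 0.022 (SE 0.22), Mcm4 0.061 and Dut -0.32.

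**Figure D5:**
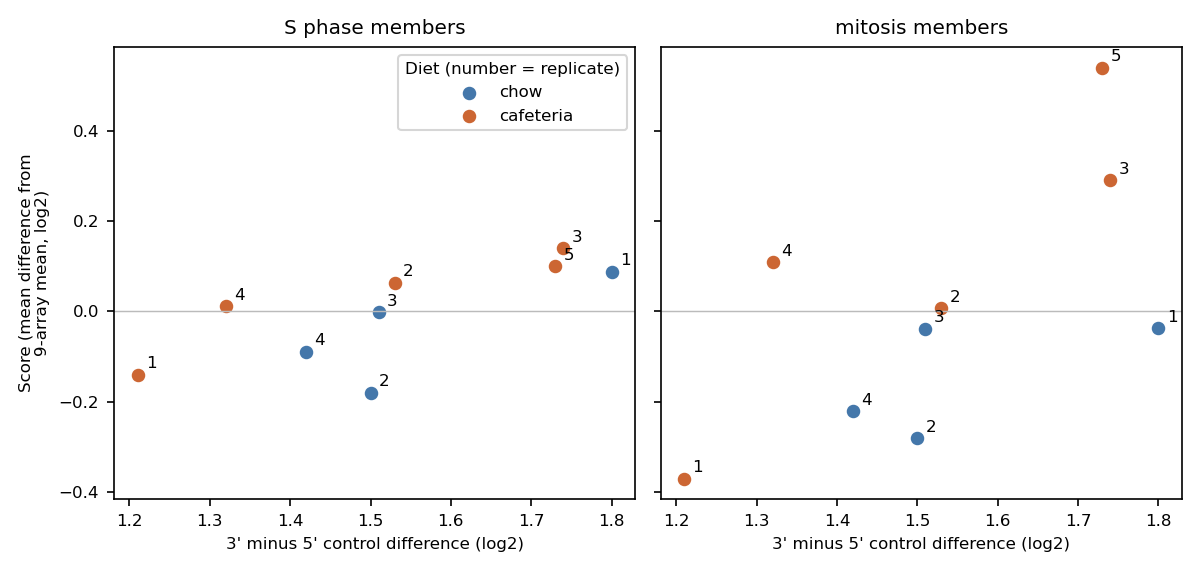
Score of the S phase members (left) and mitosis members (right) of each array against the mean 3′ minus 5′ difference of the actin and Gapdh controls (horizontal axis, log2); numbers are replicates. Cafeteria replicate 1 is lowest on both axes for mitosis genes, whereas chow replicate 1 has the highest control difference and a mitosis score of -0.037.

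The relation was not carried by all arrays alike. Without cafeteria replicate 1, 17 members had a positive coefficient at an unadjusted p under 0.05, against 8.22% of all genes. With any other array left out there were between 25 and 37, against 6.78% to 11.4% of all genes. At the adjusted threshold, 4 members passed on all arrays. There were 8 without chow replicate 4, 4 without cafeteria replicate 2, 1 without cafeteria replicate 4, and 0 without any one of the other 6 arrays (limma). The share of all genes past this threshold was not counted for single arrays left out, so these counts have no background. Chow replicate 1 had the largest control difference of all arrays and, at -0.037, the highest mitosis score of the chow arrays, next to -0.038 in chow replicate 3, but a score below that of 4 cafeteria arrays. The hexokinase control, which is not part of the measure, did not run alongside it. It was 0.28, 0.38, 0.72 and 0.19 in chow arrays and 0.52, 0.46, 0.41, 0.35 and 0.15 in cafeteria arrays. Within the cafeteria group it was highest in replicate 1, with the lowest mitosis score, and lowest in replicate 5, with the highest. The relation of the members to this control was not tested.

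With RNA quality as a covariate the diet difference of 24 members (20 mitosis and 4 S phase) was higher at an unadjusted p under 0.05, against 6.35% of all genes, and the median was 0.30 for mitosis and 0.12 for S phase genes. Kif20a then differed by 0.70 (SE 0.13), Spc25 by 0.77 (SE 0.23), Nuf2 by 0.56 (SE 0.14), Mki67 by 0.60 (SE 0.16) and Ccne1 by 0.30 (SE 0.084). The adjusted p of the members remained at 0.324 or above in this fit, and 0.0% of all genes passed it.

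Cell cycle genes outside the 54 had smaller median differences, of the same sign. These lists too were chosen with earlier results of these data known. Of 58 other mitosis genes 49 were higher, with a median of 0.11, and of 46 other S phase genes 29, with a median of 0.041. Of all genes 50.8% were higher. By limma 0 passed. At an unadjusted p under 0.05 there were 4 higher and 1 lower in the former list and 3 higher in the latter. By that rule 3.42% of all genes were higher and 3.28% lower. Cks1b, a Cdk subunit, was at 6.09, 6.22, 6.40 and 6.20 in chow and at 6.66, 6.58, 6.52, 6.70 and 6.78 in cafeteria islets. Its groups did not overlap and it was high in every cafeteria array, replicate 1 included, unlike most mitosis members (0.42, SE 0.083, adjusted p = 0.844, limma). It was the only gene of the 58 with separate groups, and 1.33% of all genes were separate in this direction. It is named here because it had the smallest p of its list. Its RNA quality coefficient was -0.16 (SE 0.22). The next smallest p of these lists belonged to Knstrn (0.34, SE 0.13) and Gtse1 (0.18, SE 0.078) for mitosis, and to the S phase genes Dtl (0.26, SE 0.10), Chek1 (0.43, SE 0.17) and Fen1 (0.25, SE 0.11).

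Markers of other cells that can divide were measured on the same arrays. Lymphoid markers had lower means under the cafeteria diet in 17 of 20, with scores of -0.12 to 0.87 in chow, the highest in chow replicate 3, and -0.19 to -0.13 in cafeteria arrays. Macrophage and myeloid markers were lower in 13 of 16, with scores of 0.016 to 0.23 in chow and -0.25 to 0.11 in cafeteria arrays, where replicate 1 was lowest and replicate 5 highest. Endothelial markers were lower in 10 of 12 (-0.04 to 0.095 against -0.18 to 0.11), and stellate and fibroblast markers in 7 of 14 (-0.089 to 0.15 against -0.53 to 0.29); both lists had their lowest score in cafeteria replicate 1. Ductal markers were lower in 8 of 12 (-0.33 to 0.66 against -0.20 to 0.015), with the highest score in chow replicate 1. Of the beta cell markers 4 of 7 were lower (-0.015 to 0.052 against -0.055 to 0.069), with the widest difference in Pdx1 (-0.25, SE 0.14). Acinar markers were higher in 21 of 22 (-0.65 to 0.14 against -0.84 to 0.59). Their score was lowest, at -0.84, in cafeteria replicate 5, the array with the highest mitosis score. Other arrays did not show this pattern. Cafeteria replicate 3, next highest for mitosis (0.29), had an acinar score of 0.57. Chow replicates 3 and 4 had low acinar scores (-0.51 and -0.65) with mitosis scores of -0.038 and -0.22. Log2 values have no zero, so none of these markers can be called absent, and the part of these cells in the cell cycle values was not tested. With the acinar score as a covariate 19 members were higher at an unadjusted p under 0.05 (limma), against 3.09% of all genes. The lowest adjusted p of a member in this fit was 0.89. The median difference was 0.40 for mitosis and 0.086 for S phase genes.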

How the data were processed

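RNA of 9 islet samples was measured on single-colour arrays. The authors deposited log2 values for each probe set. RMA is listed in the submitters' processing notes, with R 2.7.0 and affy 2.0.1, and their order is not given. RMA equalises the arrays, so a shift common to most genes would be removed. Of 31099 probe sets 57 controls were left out, and 20826 of the other 31042 had a single gene in the platform annotation (14217 genes); 436 had several and 9780 were not listed. Each gene was read from its probe set of highest mean level. Replicates were numbered in accession order.

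Groups were compared with limma 3.58.1 (R 4.3.3), lmFit and eBayes, two-sided, without covariates, and Benjamini-Hochberg adjustment over all 31042 probe sets. The relation to RNA quality was fitted with diet as a term. The fits were tested on simulated data. Summaries used Python 3.11.15. Control differences were compared by an exact permutation test over 126 assignments, whose smallest p is 0.00794. The members and lists were chosen with earlier results of these data known.

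Named genes were Mki67, Top2a, Cdk1, Ccnb1, Pcna, Mcm2, E2f1 and Foxm1, the 5 S phase and 8 mitosis members with the smallest p, members with separate groups or lower means, the 4 with the widest spread and 3 each of 2 further lists. Other members were named to account for all 54. Alternatives were scalings, a filter on dim probe sets, variance models, covariates, other probe sets and single arrays left out.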

Additional observations from a re-analysis of the deposited data

Results flagged for a closer look

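Within groups, 72 sets of values were checked for a single array apart from the rest, and 2 were found; chance alone gives about 1 in 20. Dut was at 8.78 in cafeteria replicate 3, where the other 4 cafeteria arrays held 9.20 to 9.34. Mcm7 was at 8.07 in chow replicate 1, where the other chow arrays held 7.49 to 7.52.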

How the results depend on the processing

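For the diet difference, no member passed the adjusted threshold under any alternative run, also at an adjusted p of 0.10. The medians of both lists moved by less than the spread of the scores between arrays throughout. That spread was 0.27 for mitosis and 0.11 for S phase genes, about as large as the medians of 0.25 and 0.12. This limit is therefore too wide to show that the medians were stable. The mitosis median ran from 0.14 to 0.37 with single arrays left out and was 0.40 with the acinar score. For S phase genes single arrays gave 0.055 to 0.15. The count of members at an unadjusted p under 0.05, 5 in the main analysis, was 8 with array weights, 24 with RNA quality and 19 with the acinar score added to the model, 9 with the probe set of smallest p per gene (8 of them higher), and 1 to 26 with single arrays left out. Of all genes, 3.42% were higher by this rule in the main analysis, 4.85% with array weights, 6.35% with RNA quality, 3.09% with the acinar score and 4.7% with the smallest p. Among the brighter probe sets, which hold 34 members, it was 3, where 3.05% of the genes kept were higher by this rule. There 32 members were higher, and fewer members were tested. With arrays centred on their median, or normalized again, it was 7 each, all higher, against 4.01% and 3.69% of all genes. The count of members with a positive coefficient of the 3′ minus 5′ measure at an unadjusted p under 0.05 (limma) was 33, against 10.8% of all genes. With single arrays left out it was 17 to 37, against 6.78% to 11.4% of all genes. With the actin control alone it was 37 (11.8% of all genes, 9 members past the adjusted threshold). With Gapdh alone it was 28 (7.06%, 0 members), and both alternatives were chosen after seeing the data. The sign turned for Hells with RNA quality as a covariate (0.039) and without chow replicates 1 and 3 (0.13, also chosen after seeing the data), and for Birc5 with the acinar score (0.055). With single arrays left out Hells ranged from -0.086 to 0.10, Birc5 from -0.10 to 0.023, Foxm1 from -0.086 to 0.082 and Mcm2 from -0.047 to 0.11. The cause of these changes was not tested. No paired analysis was possible because the labels give the samples letters and no replicate numbers shared between groups. Dim probe sets limit what can be seen: small differences near background are compressed.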

Other observations

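Genes that hold cells before S phase or release them had no common direction. Of 13 D cyclins, Cdk4/6 and inhibitor genes 8 were higher and 5 lower, with a median of 0.029. At an unadjusted p under 0.05 there were 0 (limma), where 3.42% of all genes were higher and 3.28% lower. Their mean pairwise correlation within groups was -0.00091. At an unadjusted p under 0.05, 1 had a positive and 2 a negative RNA quality coefficient. Of all genes 10.8% were positive and 1497 of 14217 negative by that rule, so these few counts do not set the list apart. Immediate early genes, which respond to handling, had a positive coefficient at an unadjusted p under 0.05 in 6 of 15, against the same 10.8%. They were lower under the cafeteria diet in 15 of 15, with a median of -0.56. Their mean pairwise correlation within groups was 0.76, so these are not independent results. Their score was highest, at 1.24, in chow replicate 1, the array with the largest 3′ minus 5′ difference. It was lowest, at -0.61, in cafeteria replicate 1, the array with the smallest. Between these it did not follow the difference. Cafeteria replicates 3 and 5, with the next largest differences (1.74 and 1.73), had scores of -0.47 and -0.25. Cafeteria replicate 2 (1.53) had 0.46.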
